A study of Rattus norvegicus with 6 samples.

Results

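Cyp26b1 and Aldh1a3 encode enzymes at opposite ends of retinoic acid metabolism, and their RNA was measured in neonatal rat ventricular myocytes (NRVMs) treated with human serum. They are 2 of the 3221 genes in the deposited expression table, found by their exact symbols (Ensembl identifiers ENSRNOG00000015076 for Cyp26b1 and ENSRNOG00000013028 for Aldh1a3). Both were chosen because their values with DCM serum differed from those with NF serum in opposite directions, so the values of this pair are described here with no test. NRVMs are ventricular heart muscle cells isolated from Sprague Dawley rats (post-natal 2 days in the labels) and kept in culture, where other heart cells can be carried along. The serum came from children with no heart failure (nonfailing, NF) or with dilated cardiomyopathy (DCM), a disease of enlarged and weakly contracting ventricles, and all 6 libraries were exposed to human serum. The labels give 1% serum for 72 hours, whereas the study's methods give a higher concentration and a range of times. There were 3 libraries per serum, 1 of each from every NRVM preparation (A, B and C), with the RNA of 2 plates pooled in each. In the labels, the NF libraries of preparations B and C carry the same serum label, while the 3 DCM libraries carry different ones.

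Retinoic acid is a small lipophilic hormone made from vitamin A. Retinol is first oxidized to retinaldehyde, and retinaldehyde dehydrogenases of the Aldh1a group, among them Aldh1a3, oxidize retinaldehyde to retinoic acid. Cytochrome P450 enzymes of the Cyp26 group, among them Cyp26b1, oxidize retinoic acid further to forms that are cleared. Retinoic acid binds the nuclear receptors RAR, which pair with RXR on DNA and control transcription. In the developing heart, retinoic acid made largely by Aldh1a2 patterns the inflow region and acts on the growth of the ventricular wall.

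RAR and RXR bind paired hexamers in the same direction, and the classic site lies in the promoter of Rarb, a RAR gene of the table. Promoter sequences of RefSeq (build GRCr8, not the build of the expression table) were searched on both strands for 4 hexamers. These were AGGTCA, which is the consensus, GGTTCA, which is the first hexamer of the Rarb site, AGTTCA, which is its second hexamer, and the variant GGGTCA. The windows cover 300 bases around each annotated start. A single hexamer was found in 44.4% of 33469 windows, and a pair in the same direction with 5 bases between, which contains 2 of these hexamers, in 0.382%. Pairs with 2 bases or 1 base between were in 0.17% and 0.233% of windows. Of 15 retinoid genes of the table, 12 had a window, 3 of them held a hexamer (Rarb, Rara and Pla2g16) and 1, Rarb, held a pair. The Rarb pair is shown as the example of such a site, together with that of Cyp26a1, a Cyp26 gene that was not analysed here, with the hexamers in capitals. They lie at chr15:11336410-11336438 (plus strand) for Rarb and at chr1:244883724-244883752 (minus strand) for Cyp26a1.
Rarb: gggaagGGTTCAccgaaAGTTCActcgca
Cyp26a1: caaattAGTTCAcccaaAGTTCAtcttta

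The windows of Cyp26b1 and Aldh1a3 held 0 of these hexamers, which says only that the letters are not in these windows. The 250 bases before each start are shown because they are the promoters of both genes described here. They lie at chr4:118616177-118616426 for Cyp26b1 and at chr1:129427644-129427893 for Aldh1a3, both on the minus strand. Capitals mark the longest run of letters that both share in the same direction, 9 letters long and picked after the sequences were seen. It starts 104 bases before the start of Cyp26b1 and 30 bases before that of Aldh1a3, and 0.149% of windows hold it on either strand. The GC content was 50.4% for Cyp26b1 and 73.6% for Aldh1a3.
Cyp26b1: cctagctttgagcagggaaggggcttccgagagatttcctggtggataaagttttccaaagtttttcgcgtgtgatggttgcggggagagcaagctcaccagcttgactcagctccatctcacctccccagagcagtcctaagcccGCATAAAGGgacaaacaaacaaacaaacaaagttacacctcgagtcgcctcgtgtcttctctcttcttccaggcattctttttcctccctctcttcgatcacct
Aldh1a3: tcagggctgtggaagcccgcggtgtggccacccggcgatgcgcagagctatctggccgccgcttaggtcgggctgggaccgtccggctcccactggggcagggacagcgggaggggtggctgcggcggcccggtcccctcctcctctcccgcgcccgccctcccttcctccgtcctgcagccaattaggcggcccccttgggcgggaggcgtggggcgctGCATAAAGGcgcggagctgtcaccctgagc

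Cyp26b1 RNA was higher with DCM serum in each preparation. Levels are given as FPKM, the number of fragments per kilobase of exon, scaled by the mapped reads of the library, which allows comparison between genes of different length. Cyp26b1 was at 0.96, 1.48 and 1.44 FPKM with NF serum in preparations A, B and C. With DCM serum it was at 2.01, 3.05 and 3.68 FPKM in the same order. The lowest DCM library was 1.36-fold above the highest NF library, so the groups did not overlap. The background for this is a share of 2.73% of the genes of the table with all DCM libraries above all NF libraries, and nothing is read from it, since the gene was chosen on these values. The mean was 1.29 ± 0.289 FPKM for NF serum and 2.91 ± 0.844 FPKM for DCM serum (SD, n = 3 each).

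Aldh1a3 RNA was lower with DCM serum in each preparation. It was at 2.63, 3.75 and 3.58 FPKM with NF serum in preparations A, B and C. With DCM serum it was at 0.933, 1.78 and 2.52 FPKM. The groups did not overlap, but only narrowly, since the lowest NF library (A) was 1.04-fold above the highest DCM library (C). All DCM libraries lay below all NF libraries for 25.7% of the genes of the table. The mean was 3.32 ± 0.606 FPKM for NF serum and 1.75 ± 0.796 FPKM for DCM serum (SD, n = 3 each). The DCM libraries ranged over 2.7-fold, against 1.43-fold for the NF libraries. NF libraries B and C carry the same serum label and the DCM libraries different ones, so the ranges do not cover like sets of sera. Why they differ was not tested.

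**Figure D1:**
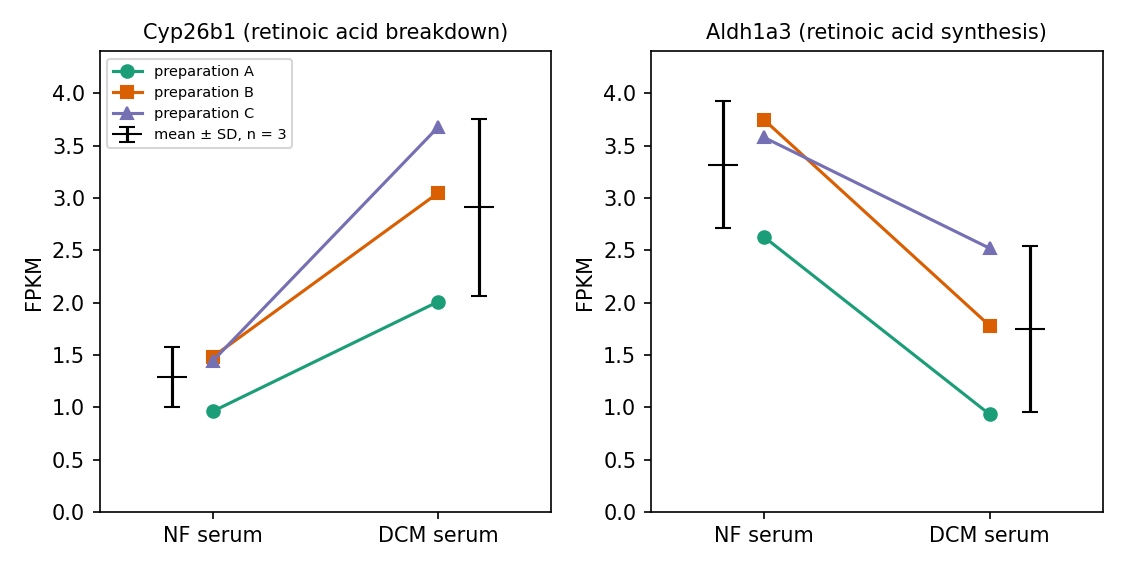
FPKM of Cyp26b1 (left) and Aldh1a3 (right) in the 3 NF and 3 DCM serum libraries, with lines joining the libraries of 1 NRVM preparation and black bars for the mean ± SD (n = 3). Every Cyp26b1 line goes up and every Aldh1a3 line goes down, and preparation A has the lowest level of both genes with either serum.

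Within preparations, the ratio of DCM to NF serum was steadier for Cyp26b1 than for Aldh1a3. The Cyp26b1 level with DCM serum was 2.09, 2.06 and 2.55 times that with NF serum in preparations A, B and C. Its log2 ratios of 1.07, 1.04 and 1.35 had a mean of 1.15 ± 0.17 (SD, n = 3). Aldh1a3 was 2.82, 2.1 and 1.42 times as high with NF as with DCM serum. Its log2 ratios of -1.49, -1.07 and -0.51 had a mean of -1.02 ± 0.50 (SD, n = 3). The preparation with the largest Aldh1a3 difference was therefore A and the one with the smallest was C, whereas the largest Cyp26b1 ratio was that of C. The SD of the Aldh1a3 ratios was larger than that of 94.5% of the genes of the table, and that of the Cyp26b1 ratios was larger than 48.6%.

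The table is a selected set, and this bears on how far any of its ratios can be read. Every gene in it has a deposited q-value under 0.10 from the authors' test, and none of the 3221 genes changes its direction between preparations, with 252 above and 2969 below NF serum throughout. The agreement of both members across preparations therefore comes with the selection. Most genes of the table are lower, and preparations A, B and C had median log2 ratios of -0.17, -0.40 and -0.25. Relative to these medians, Cyp26b1 had log2 ratios of 1.23, 1.44 and 1.60, and Aldh1a3 had -1.33, -0.67 and -0.26. Both kept their direction, and the Aldh1a3 value of preparation C was the nearest of the 6 to the median.

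Both genes stood toward the ends of the table by ratio, and both were weakly expressed. Only 24 genes had a higher mean log2 ratio than Cyp26b1, and 50 had a lower one than Aldh1a3. In single preparations, 30, 32 and 14 genes had a higher ratio than Cyp26b1 in A, B and C, while 14, 275 and 598 genes had a lower ratio than Aldh1a3. Aldh1a3 thus lay near the lower end in preparation A and well inside the lower genes in preparation C. By mean FPKM over the 6 libraries, 12.9% of genes were below Cyp26b1 and 17.0% below Aldh1a3. The table gives no read counts and no total for any library, and the study's methods give only an average depth, so no counting interval was computed for these low values.

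**Figure D2:**
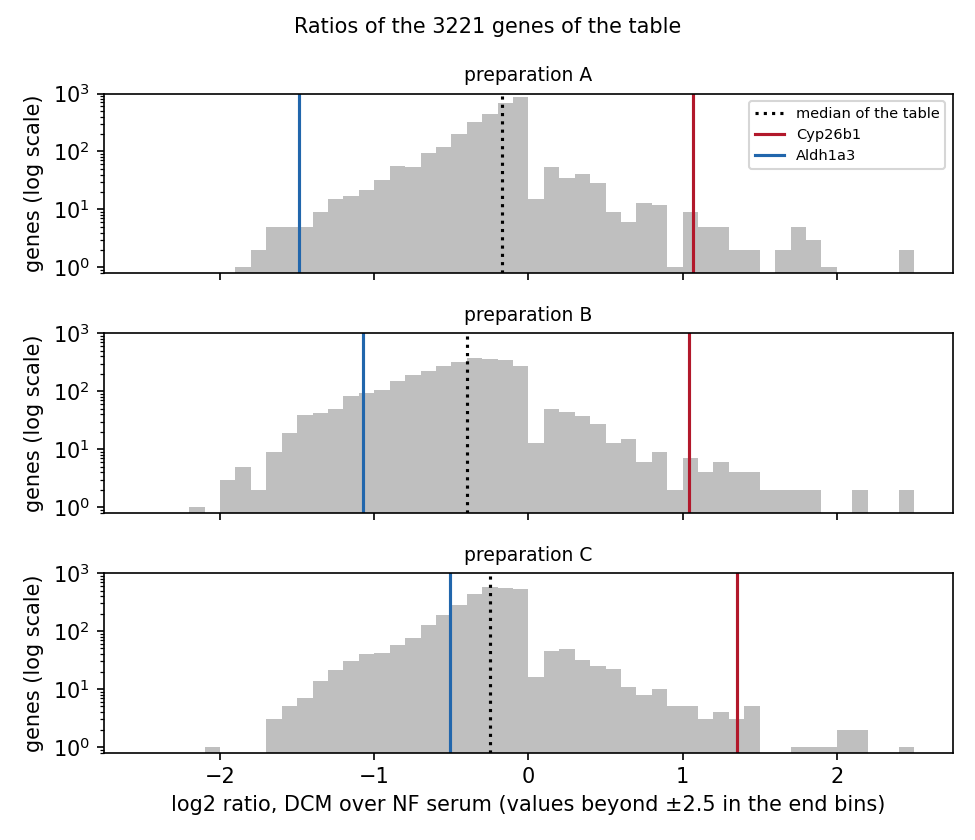
Histograms of the log2 ratio of DCM to NF serum over the 3221 genes of the table in NRVM preparations A, B and C, with the number of genes on a log scale. Cyp26b1 (red) sits near the upper end at 1.07, 1.04 and 1.35, whereas Aldh1a3 (blue) moves from -1.49 in A to -0.51 in C, and dotted lines mark the medians.

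The order of both levels was reversed between the sera. With NF serum, Aldh1a3 was 2.48-fold to 2.74-fold above Cyp26b1. In the NF libraries the quotient of Cyp26b1 to Aldh1a3 was 0.365 (A), 0.394 (B) and 0.403 (C). With DCM serum, Cyp26b1 was the higher of both genes in each library, with quotients of 2.15, 1.71 and 1.46. The quotient varied little between NF libraries (mean 0.387 ± 0.0196, SD, n = 3) and more between DCM libraries (1.77 ± 0.352, SD, n = 3). In preparations A, B and C it was 5.9, 4.34 and 3.62 times as high with DCM as with NF serum, a mean log2 difference of 2.18 ± 0.36 (SD, n = 3). A quotient within a library does not depend on how the library was scaled. It does depend on the choice of both genes for their opposite directions, and no test is given for it.

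The opposite differences were not of the same size within a preparation. The sum of both log2 ratios, which is 0 where they cancel, was -0.43 in preparation A, -0.03 in B and 0.85 in C. In A the Aldh1a3 difference was the larger, in B both were nearly equal, and in C the Cyp26b1 difference was the larger. The summed FPKM of both genes was 3.59, 5.23 and 5.03 with NF serum and 2.94, 4.83 and 6.21 with DCM serum.

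**Figure D3:**
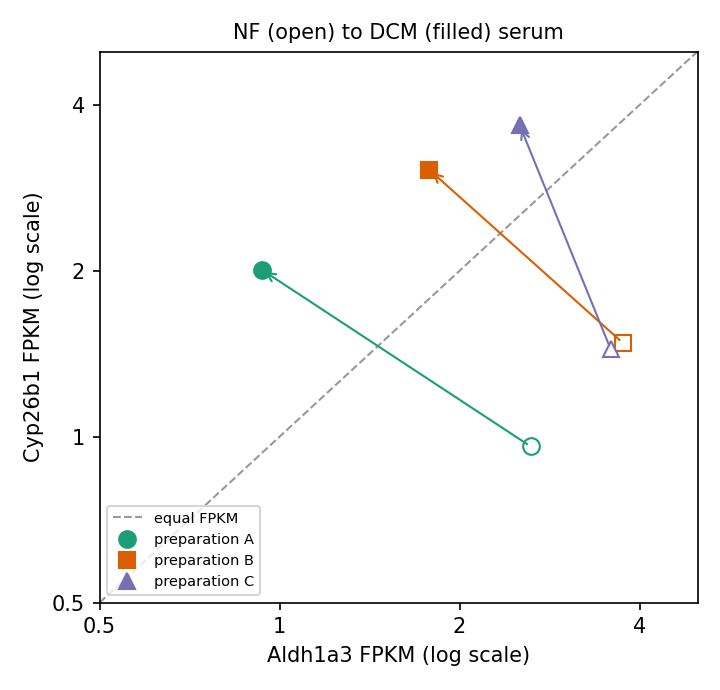
Cyp26b1 FPKM against Aldh1a3 FPKM, both on log scales, with an arrow from the NF (open) to the DCM (filled) library of each NRVM preparation. All 3 NF libraries lie below the dashed line of equal FPKM and all 3 DCM libraries above it, and the arrow of preparation C is the steepest.

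The other genes of the pathway were read from lists of retinoid synthesis, breakdown, storage, transport, receptors and targets, which name 124 genes with both members. Of these, 15 are in the table, and 13 remain without Cyp26b1 and Aldh1a3. They were tested with limma on log2(FPKM + 1), with the NRVM preparation as a block and adjusted over all 3221 genes (adjusted p under 0.10). Of the 13 genes, 1 rose, 8 fell and 4 did not pass. By the same test 6.24% of all genes rose and 61.6% fell (67.8% in either direction), so the share of the 13 that fell was near that of all genes. Their median log2 ratio was -0.27, and that of the table was -0.29. The test uses the same ratios as the authors' selection, so passing it is no independent support. Without preparation A, B or C, 5, 0 and 1 of the 13 fell, while 36.1%, 14.3% and 16.2% of all genes fell. In the same fits 0 of the 13 rose each time, against 4.35%, 4.07% and 3.01% of all genes. When ratios were centred on the median of each preparation, 1 rose and 0 fell, while the table as a whole then had 252 genes higher (7.82%) and 344 lower (10.7%), against 201 and 1984 before. Without the preparation block limma called 0 of the 13, and of all genes 0.0931% were called higher and 0.031% lower. At an unadjusted p under 0.05 in that fit were 2 of the 13 and 16.5% of all genes.

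Among the enzymes of synthesis, 4 of 25 listed genes are in the table. Aldh1a2, the main retinaldehyde dehydrogenase of the embryonic heart and a marker of epicardium, was at 0.888, 1.94 and 5.07 FPKM with NF serum in preparations A, B and C. With DCM serum it was at 0.885, 1.23 and 3.66 FPKM. The groups overlapped widely, because preparations differed more than sera. Its log2 ratios were -0.01, -0.65 and -0.47, so preparation A, where Aldh1a3 differed most, showed almost no difference in Aldh1a2 (mean -0.38 ± 0.33, limma adjusted p = 0.0879). Rdh14, a retinol dehydrogenase that can also reduce retinaldehyde, was the 1 gene of the 13 that rose, from 8.01, 10.7 and 11.2 FPKM with NF serum to 9.07, 12.6 and 13.3 FPKM with DCM serum. Its mean log2 ratio was 0.22 ± 0.04 (limma adjusted p = 0.0657), and the groups overlapped. Adh5, an alcohol dehydrogenase that mainly handles glutathione-bound formaldehyde, fell by 0.30 ± 0.09 on the log2 scale (limma adjusted p = 0.0461).

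The summed level of Aldh1a2 and Aldh1a3 was set beside Cyp26b1 after the values of all 3 had been seen. The sum was 3.52, 5.69 and 8.66 FPKM with NF serum and 1.82, 3.02 and 6.19 FPKM with DCM serum in preparations A, B and C. Aldh1a3 made up 74.8%, 65.9% and 41.4% of it with NF serum and 51.3%, 59.1% and 40.8% with DCM serum. Preparation C was therefore the one with the most Aldh1a2 and the smallest share of Aldh1a3. Cyp26b1 amounted to 0.273, 0.26 and 0.167 times the sum with NF serum and to 1.11, 1.01 and 0.595 times the sum with DCM serum. With either serum the lowest value was that of preparation C, and the groups did not overlap. Both members enter this quotient and were chosen for their opposite directions, so nothing is read from the lack of overlap.

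Breakdown is represented by Cyp26b1 alone, 1 of 5 listed genes, and Cyp26a1 and Cyp26c1 were not analysed here. For storage and return, 2 of 13 listed genes are in the table. Dhrs4, a reductase of carbonyl compounds including retinaldehyde, and Lpl, a lipase that can release retinol from its esters in lipoproteins, fell by 0.19 ± 0.11 and 0.27 ± 0.21 on the log2 scale (limma adjusted p = 0.0981 and 0.0805). For transport, 1 of 15 is in the table. Scarb1, a receptor for lipoproteins that also takes up carotenoids, went from 8.07, 8.17 and 7.77 FPKM with NF serum to 6.39, 6.21 and 6.54 FPKM with DCM serum. Its groups did not overlap, and it fell by 0.33 ± 0.07 on the log2 scale (limma adjusted p = 0.0451).

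Of 23 listed receptors and partners, 4 are in the table, and 2 of them fell, against 61.6% of all genes. Rara, a RAR gene, was at 20.7, 23.8 and 20.9 FPKM with NF serum and at 15.8, 12.8 and 19.5 FPKM with DCM serum in preparations A, B and C. The groups did not overlap, but the log2 ratios of -0.40, -0.90 and -0.10 were far apart (mean -0.47 ± 0.40, limma adjusted p = 0.07). Rarb, a RAR gene and itself a classic target of retinoic acid through the pair of hexamers printed above, was at 2.87, 4.06 and 5.24 FPKM with NF serum. With DCM serum it was at 2.42, 3.0 and 3.76 FPKM. Its levels followed the preparations in the same order with both sera, the groups overlapped, and its log2 ratios of -0.25, -0.44 and -0.48 had a mean of -0.39 ± 0.12 (limma adjusted p = 0.046). Rxra, the RXR partner of these receptors, had log2 ratios of -0.07, -0.72 and -0.09 and did not pass (limma adjusted p = 0.142), and neither did Crebbp, a coactivator (-0.07 ± 0.10, limma adjusted p = 0.505). Preparation B had the largest difference for Rara, Rxra and Crebbp, while for Cyp26b1 it had the smallest. However, B also had the lowest median log2 ratio of the table (-0.40). Relative to the preparation medians, B stayed lowest for Rara (-0.50) and Rxra (-0.32). This did not hold for Crebbp (0.21 in B, 0.15 in A), and the smallest Cyp26b1 value was then that of A (1.23, against 1.44 in B).

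Of 54 genes listed as targets of retinoic acid, 5 are in the table, Cyp26b1 and Rarb among them. Cyp26b1 is often induced by retinoic acid, and it was the 1 target of the 5 with a ratio above 1. It was chosen for its higher values, so nothing is read from this. Of the 3221 genes of the table, 252 had a mean ratio above 1, so the other targets went the way of most genes. Besides Rarb, Icam1, an adhesion molecule for leukocytes, fell by 0.25 ± 0.20 on the log2 scale (limma adjusted p = 0.0873). Meis2, a homeodomain transcription factor, had -0.19 ± 0.17 and Pla2g16, a phospholipase, had -0.12 ± 0.08, and neither passed (limma adjusted p = 0.119 and 0.185).

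**Figure D4:**
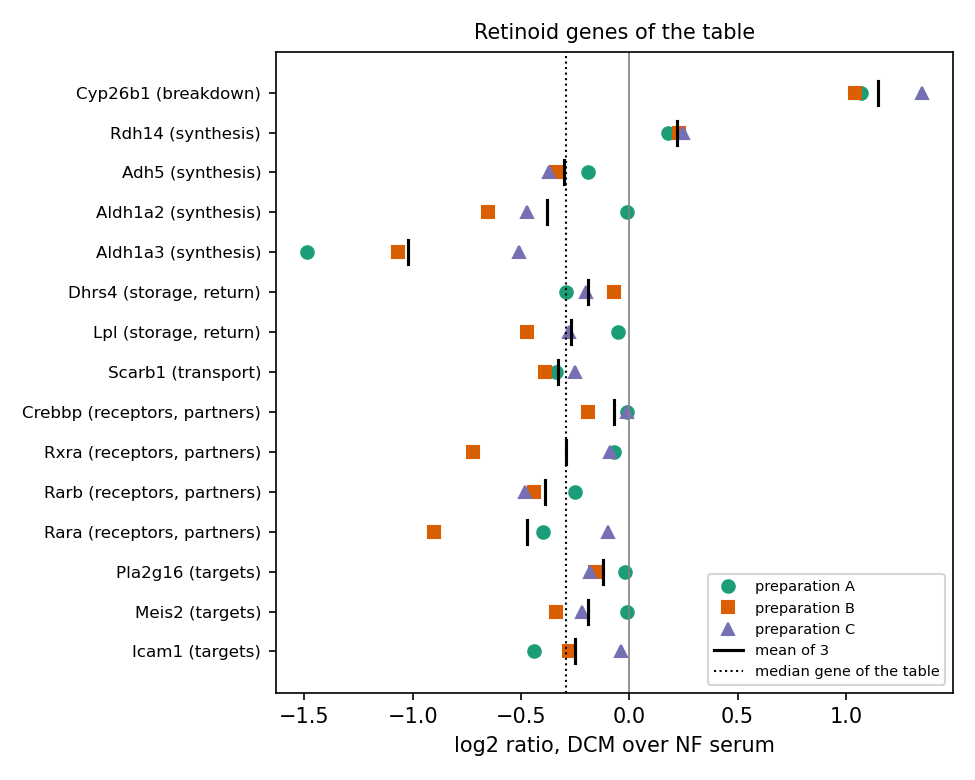
Log2 ratio of DCM to NF serum for the 15 retinoid genes of the table, by role, with 1 symbol for each NRVM preparation, a black bar for the mean of 3 and a dotted line for the median gene of the table at -0.29. Cyp26b1 (mean 1.15) and Aldh1a3 (mean -1.02) lie apart from the other 13 genes, whose means lie between -0.47 and 0.22.

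The enzyme families of both members have 8 genes in the table, taken by symbols that start with Cyp or Aldh. Of the 6 others, 1 rose and 4 fell by the paired limma fit, against 6.24% and 61.6% of all genes, so the share that fell was near that of the table. Cyp2d4, a cytochrome P450 of the liver and brain that oxidizes many drugs, was at 0.189, 0.212 and 0.739 FPKM with NF serum and at 0.664, 0.765 and 1.87 FPKM with DCM serum. It rose from a very low level by a mean log2 ratio of 1.67 ± 0.28, computed without a pseudocount. The limma test (adjusted p = 0.0251) was on log2(FPKM + 1), where the difference is smaller at such levels. Its NF library C lay above its DCM library A. Its reads can be hard to tell from those of near-identical Cyp2d genes. Cyp4f6, a hydroxylase of fatty acids and eicosanoids, fell by 0.41 ± 0.08 on the log2 scale with no overlap of the groups (limma adjusted p = 0.0339). Aldh16a1 and Aldh7a1, the latter an enzyme of lysine breakdown, fell by 0.43 ± 0.02 and 0.20 ± 0.13 on the log2 scale (limma adjusted p = 0.0307 and 0.0947). Aldh1a2, given above, also fell, and Aldh6a1, a mitochondrial enzyme of valine breakdown, did not pass (-0.22 ± 0.30, limma adjusted p = 0.164). Among the Aldh genes named here, Aldh1a3 had the lowest mean log2 ratio. Cyp26b1 stood between Cyp2d4 and Cyp4f6, the only other Cyp genes of the table. Both members were chosen on these ratios, so nothing is read from their places. Without preparation A, B or C, 3, 2 and 2 of the 6 fell, while 36.1%, 14.3% and 16.2% of all genes did, and 1 rose each time, against 4.35%, 4.07% and 3.01%. With ratios centred on the preparation medians 1 rose and 0 fell, against 7.82% and 10.7% of all genes. Without the preparation block limma called 0 of the 6, and 0 had an unadjusted p under 0.05, against 16.5% of all genes.

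The genes whose pattern over the 6 libraries was most like that of Cyp26b1 were found by the root mean square difference of log2 FPKM after the mean of each gene was subtracted. The nearest was Arrdc2, an arrestin domain protein, with a difference of 0.07 and, from A to C, log2 ratios of 1.22, 1.01 and 1.46. Like Cyp26b1, it had its largest ratio in preparation C and its smallest in B, and at 1.16 and 2.74 FPKM its mean levels with NF and DCM serum were also close to those of Cyp26b1. Nbeal2 (0.21), Gpd1 (0.23), Lmod1 (0.24) and Spef1 (0.24) came next, at a clearly greater difference. Gpd1 is a glycerol-3-phosphate dehydrogenase of the cytosol and Lmod1 an actin filament protein of smooth muscle.

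The genes most like Aldh1a3 were Mybph (0.14), Tmem106c (0.15), Adamtsl2 (0.15), Igip (0.16) and Pyroxd2 (0.16). Mybph, a myosin-binding protein, had log2 ratios of -1.44, -1.06 and -0.27, and Adamtsl2, a matrix protein that binds fibrillin, had -1.50, -1.13 and -0.22. All 5 shared the small difference in preparation C, with log2 ratios there between -0.42 and -0.22. Over the 6 libraries, the patterns of both members were not mirror images of each other. These patterns hold the levels of the preparations as well as the sera, and both members were lowest in preparation A with either serum. The ranks that follow therefore do not compare the serum ratios alone. Against the sign-reversed pattern of Cyp26b1, Aldh1a3 ranked 2731 among all other genes, with a difference of 0.77, and the nearest gene was Rfc3, a subunit of the replication clamp loader, at 0.24. Against the sign-reversed pattern of Aldh1a3, Cyp26b1 ranked 1130, and the nearest was Efhd2, a calcium-binding protein, at 0.19.

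NRVM cultures can hold other heart cells, and the table has few of their markers. Of 11 endothelial markers, 2 are in it (Pecam1 and Egfl7), and both rose by the paired limma fit, as did 6.24% of all genes. Their summed FPKM was 4.46, 2.75 and 4.02 with NF serum and 6.04, 3.79 and 5.6 with DCM serum in preparations A, B and C. Every gene of the table keeps its direction across preparations by the selection. That this sum was higher in each preparation, like Cyp26b1, therefore ties neither to the other. Of 10 epicardial markers, 2 are in it (Aldh1a2 and Krt19), and both fell by that fit, as did 61.6% of all genes. Their sum was 4.66, 7.3 and 17.0 FPKM with NF serum and 4.36, 5.08 and 11.2 FPKM with DCM serum, lowest in preparation A, where Aldh1a3 differed most. Of 13 fibroblast markers 3 are in the table (Lum, Postn and Vim), with sums of 199 to 284 FPKM with NF serum and 142 to 250 FPKM with DCM serum. Most of this sum is Vim, which did not pass by that fit, whereas Lum and Postn fell, as did 61.6% of all genes. With NF serum Lum was at 5.65, 2.75 and 19.5 FPKM in preparations A, B and C. Of 9 markers of smooth muscle and pericytes 2 are in the table, with sums of 119 to 152 FPKM with NF serum and 75.0 to 122 FPKM with DCM serum. None of 10 macrophage markers is in the table. Of 6 markers of Schwann cells and neurons 2 are in it, Ncam1 (higher) and Tubb3 (lower), with sums of 145 to 166 FPKM with NF serum and 171 to 207 FPKM with DCM serum. Nearly all of this sum is Ncam1. Tubb3 went from a mean of 4.67 FPKM with NF serum to 3.11 FPKM with DCM serum. Of 18 cardiomyocyte markers 2 are in it, Myl2 and Mybpc3, at a summed 9600 to 11700 FPKM with NF serum and 6850 to 11600 FPKM with DCM serum, and the labelled cell type could be checked no further than this. Fewer cells of a type and less RNA per cell cannot be told apart in these libraries, and the part of other cells in the Cyp26b1 and Aldh1a3 values was not tested.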

How the data were processed

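RNA of serum-treated NRVMs was sequenced in 6 libraries, 3 for each serum. Per the methods of the paper, the authors used GSNAP to align reads to the rat build Rnor_5.0, computed FPKM per library with Cufflinks, removed genes with low variance and kept genes that passed their test. All 3221 genes of the table have a deposited q-value under 0.10. The paper describes a smaller set at that threshold, in which more genes were upregulated than downregulated. Here 252 genes have a mean ratio above 1 and 2969 below 1, and the paper's upregulated genes outnumber the former. The paper's set is therefore not simply a part of these 3221 genes with the same directions. How the sets relate is otherwise not given in the sources used here. The deposited table holds these FPKM values, without counts, and columns of the authors' own fold changes, p-values and q-values, which entered no result. The names of 3 of those columns give the pairing of libraries by preparation. Across genes, the libraries of a pair deviated together from the means of their groups (r = 0.873, 0.743 and 0.741). These genes were kept by a test on values set relative to NF within each preparation. The correlation is therefore no independent check of the pairing.

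The comparison of DCM with NF serum used limma 3.58.1 in R 4.3.3 (functions lmFit and eBayes) on log2(FPKM + 1) with the preparation as a block, and p-values were adjusted over 3221 genes (Benjamini-Hochberg). The scripts were tested on simulated data. Ratios of the members and of all other named genes are log2 of FPKM without a pseudocount, since 0 values were 0. The limma p-values printed beside them belong to log2(FPKM + 1), where differences are smaller at low FPKM. Gene lists include older symbols. Named genes were the members, all listed genes of the retinoid lists and both enzyme families, and the 5 nearest patterns (the mirror images by their nearest gene only). The members and lists were chosen with earlier results of these data known. Since 2 NF libraries carry the same serum label, p-values measure only the spread between these libraries, which may not be that between donors. Tables were prepared with pandas 2.3.3 in Python 3.11.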

Additional observations from a re-analysis of the deposited data

How the results depend on the processing

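Of 20 values of both members and their quotient under the alternatives, 17 moved by less than 1 SD and 0 changed direction. Those with 1 preparation left out could do neither, since the ratios share a sign and such a mean cannot shift by 1 SD. Their part of the count therefore says nothing on stability. With a pseudocount of 1, the mean log2 ratio of Cyp26b1 was 0.76 and the quotient difference 1.44, and centred on the preparation medians Cyp26b1 had 1.43. A pseudocount understates the change of such low levels. Counts of genes called were less stable. Without the replicate block, 3 genes of the table were higher and 1 lower, and 0 of the 13 retinoid genes and 0 of the 6 family genes (each without both members) passed in either direction. Centred on the preparation medians, 344 genes of the table, 0 retinoid genes and 0 family genes fell. At an adjusted p under 0.05, 715 genes of the table fell, as did 3 retinoid and 2 family genes, and 0 retinoid genes rose. With a pseudocount of 0.01, 5 retinoid genes and 1798 genes of the table fell, and among genes with a mean of at least 1 FPKM 193 genes of the table rose but 0 family genes, since Cyp2d4 was left out. With 1 preparation left out, 97 to 140 genes of the table rose and 461 to 1164 fell, 0 retinoid genes rose each time and 0 to 5 fell, and 2 to 3 family genes fell. The table holds no counts or library totals, so counting error at these low levels was not computed.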
